A study of Mus musculus with 2 samples.

Results

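Homeostatic astrocyte genes are the genes that astrocytes of the resting adult brain use for water, ion, transmitter and metabolic support of neurons. A list of 34 such genes was named by symbol, by a rule that sets no threshold on a measured value but with earlier results of these data known, and all 34 were found among the 55536 genes annotated in the quantification tables. Total RNA was sequenced from hippocampus tissue (a layer of hippocampus, by its label) of male 5xFAD/CAST mice. These mice were adults of 8 to 10 months, and each library was made from 300 ng of RNA with ERCC spike-ins, a set of synthetic transcripts added in known amounts. In 5xFAD mice the Thy1 promoter, which is active in neurons, drives transgenic human APP that bears familial Alzheimer disease mutations, and CAST is a wild-derived inbred strain. There was 1 group of 2 libraries, labelled as biological replicates, and both carry the same donor identifier, so every SD below is a spread between these libraries that may be technical. Mice without transgenes were not analysed here, and no condition was compared with another.

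Astrocytes contact blood vessels with endfeet and ensheathe synapses with fine processes. They take up glutamate and potassium from the extracellular space, turn glutamate into glutamine, share small molecules through gap junctions, and supply neurons with substrates and active thyroid hormone. In mouse models of amyloid deposition, astrocytes near plaques take up a reactive state marked by Gfap. The genes below are listed as homeostatic, but their level in bulk tissue does not tell resting from reactive astrocytes.

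All 34 genes were expressed in both libraries. Glul, the glutamine synthetase that converts glutamate to glutamine, and Sparcl1, a secreted protein that promotes synapse formation, were the most abundant, at 732 ± 34.6 and 684 ± 5.81 TPM (a transcript share of the library that is corrected for length; SD, n = 2). Etnppl and Chrdl1 were the least abundant, at 4.15 ± 1.36 and 2.54 ± 0.686 TPM. Between the libraries 12 genes, or 35.3%, differed beyond counting error. Of all genes tested 18.0% did, and 21.6% where only genes with a mean of at least 100 counts were tested. Agt, the angiotensinogen precursor, was the furthest apart as a ratio. All 12 were lower in replicate 2 (8.89% of all genes were) and 0 were higher (9.07% of all genes). With scaling to the ERCC spike-ins, however, 3 were lower and 23 higher, where 58.8% of all genes differed in either direction.

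The libraries held 26128897 and 28689423 expected counts (read counts that the quantifier may split between genes), so that 1 count was worth 0.0385 and 0.0350 CPM over annotated genes. The 34 genes had between 152 and 34455 expected counts per library. All 10 genes of a hippocampal neuron list reached a TPM of 1 in both libraries. So did 8 of 8 thalamic, 8 of 8 cortical and 7 of 8 striatal genes, so this count does not set hippocampus apart from its neighbours. The median level was 37.6 ± 3.86 TPM for the hippocampal list, 17.0 ± 0.456 TPM for the cortical and 13.0 ± 1.90 TPM for the thalamic list. Among genes of nearby tissue, 12 choroid plexus genes had summed levels of 1477 TPM (replicate 1) and 288 TPM (replicate 2), and 8 striatal genes summed to 211 and 78.8 TPM. Both sums were higher in replicate 1, and they are set beside the differences between libraries below.

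Every one of the 34 genes reached a TPM of 1 in both libraries, where 60.3% of the 22015 protein-coding nuclear genes did. At a TPM of 10 there were 31, against 37.5% of all, and at a TPM of 100 there were 5, against 3.53% of all. The list's median level was 24.7 TPM for replicate 1 and 24.6 TPM for replicate 2, or 24.7 ± 0.0601 TPM (SD, n = 2). The highest mean level was 289 times the lowest, and 4 genes (Glul, Sparcl1, Aldoc and Ndrg2) held 67.4% of the summed TPM of the list in replicate 1 and 66.7% in replicate 2. The spread between libraries was small beside this range. Its coefficient of variation had a median of 2.68% over the 34 genes, stayed under 5% for 22 of them, and reached 37.7% for Agt. In bulk tissue such levels cannot tell fewer cells of a type from less RNA per cell.

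**Figure D1:**
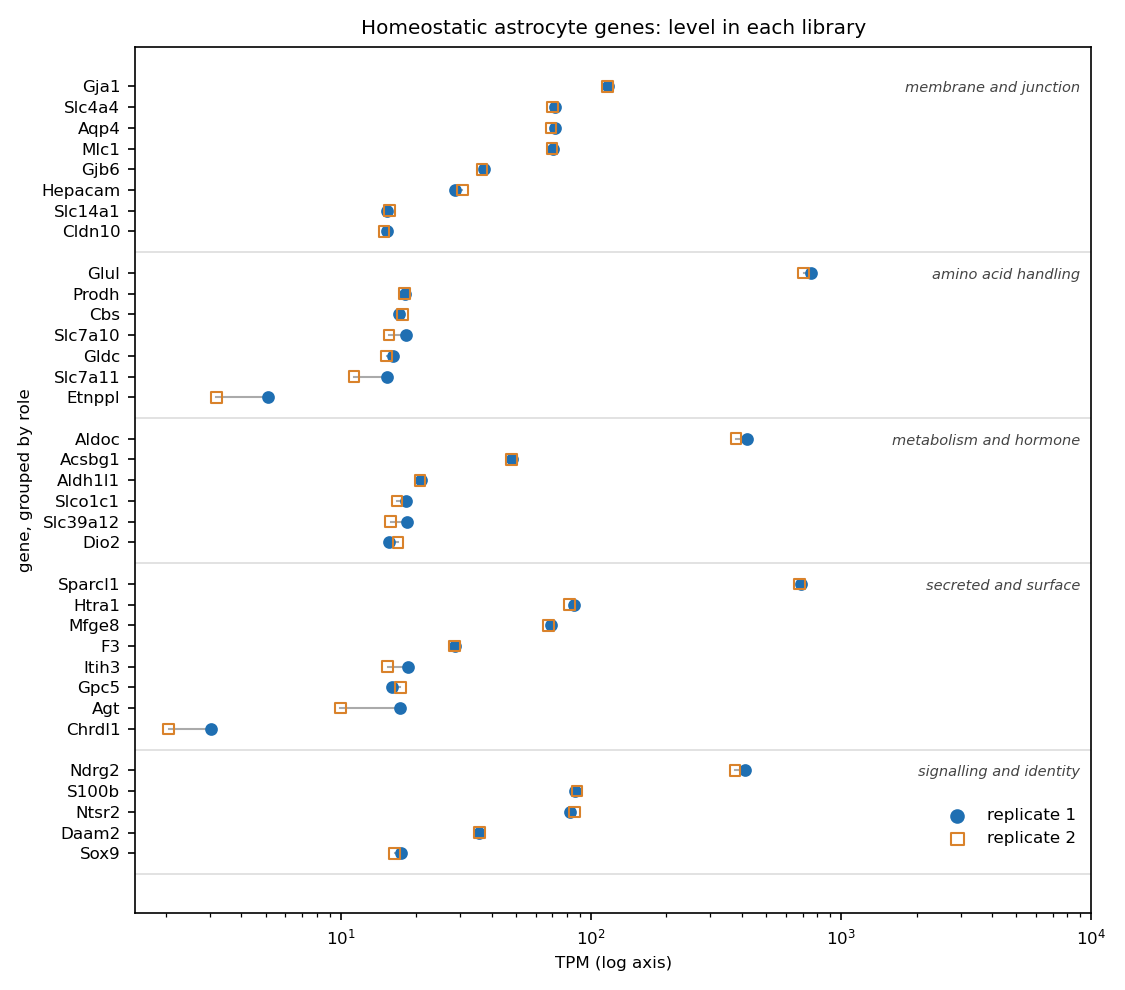
Level of each of the 34 genes in TPM (log axis), grouped by role, with a filled circle for replicate 1 and an open square for replicate 2. The symbols overlap or nearly touch for most genes, and stand visibly apart for Agt, Etnppl, Chrdl1 and Slc7a11, the last at 15.3 and 11.3 TPM.

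The 8 genes of the astrocyte membrane and its junctions lay at a median level of 53.3 ± 0.626 TPM (SD, n = 2). Gja1, the main gap junction connexin of astrocytes, was read at 117 TPM (replicate 1) and 116 TPM (replicate 2). Gjb6, the second astrocyte connexin, was read at 37.2 and 36.7 TPM. The level of Gja1 was thus 3.16 ± 0.0153 times that of Gjb6 in this table and 3.94 ± 0.179 times in the alignment-free table deposited beside it. Pairs such as this one were set side by side with their values known, so their ratios are descriptions.

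Aqp4, the water channel of astrocyte endfeet, was read at 71.7 and 69.1 TPM. Mlc1, a membrane protein whose loss causes a leukoencephalopathy with brain swelling, was read at 70.3 and 69.8 TPM. The ratio of Mlc1 to Aqp4 was 0.996 ± 0.0202, a difference smaller than its spread between libraries. Hepacam, the adhesion protein that brings Mlc1 to cell contacts, was lower than both, at 28.7 and 30.6 TPM, and Mlc1 stood at 2.37 ± 0.120 times its level. Slc14a1, a urea transporter, was read at 15.3 and 15.6 TPM. These 4 genes and Gja1 each had a coefficient of variation under 5%.

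Slc4a4, the sodium bicarbonate cotransporter that couples astrocyte pH to neuronal activity, was read at 71.9 and 70.0 TPM in the alignment-based table. In the alignment-free table it was read at 97.6 and 102 TPM, further from the first table than the libraries were from each other. Cldn10, a claudin of the tight junction family that is transcribed in astrocytes, was read at 15.3 and 14.8 TPM in the first table and at 16.9 and 17.0 TPM in the second. Both genes have a pair of start sites far apart, and the 2 tables split their transcripts differently.

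The 300 bases around each start site (250 before, 50 after) are shown because the start sites of these 2 genes differ in base composition as well as in use. They come from RefSeq on GRCm38.p6 (mm10), are written 5′ to 3′ on the plus strand on which both genes lie, and have each CpG dinucleotide in capitals. The Cldn10 windows are chr14:118787621-118787920 (upstream) and chr14:118854700-118854999 (downstream), and the Slc4a4 windows are chr5:88887010-88887309 (upstream) and chr5:89027716-89028015 (downstream).
Cldn10 upstream: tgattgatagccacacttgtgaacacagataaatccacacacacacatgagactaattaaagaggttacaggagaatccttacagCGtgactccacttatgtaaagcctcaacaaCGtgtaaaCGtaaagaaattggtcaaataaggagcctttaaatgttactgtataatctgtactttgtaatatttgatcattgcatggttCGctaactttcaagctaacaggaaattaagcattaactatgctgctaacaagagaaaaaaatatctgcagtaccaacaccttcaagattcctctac
Cldn10 downstream: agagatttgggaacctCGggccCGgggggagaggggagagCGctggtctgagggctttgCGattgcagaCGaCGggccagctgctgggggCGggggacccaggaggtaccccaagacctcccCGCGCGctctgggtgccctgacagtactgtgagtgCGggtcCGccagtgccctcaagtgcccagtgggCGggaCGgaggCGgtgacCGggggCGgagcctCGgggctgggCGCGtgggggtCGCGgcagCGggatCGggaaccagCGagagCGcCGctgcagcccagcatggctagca
Slc4a4 upstream: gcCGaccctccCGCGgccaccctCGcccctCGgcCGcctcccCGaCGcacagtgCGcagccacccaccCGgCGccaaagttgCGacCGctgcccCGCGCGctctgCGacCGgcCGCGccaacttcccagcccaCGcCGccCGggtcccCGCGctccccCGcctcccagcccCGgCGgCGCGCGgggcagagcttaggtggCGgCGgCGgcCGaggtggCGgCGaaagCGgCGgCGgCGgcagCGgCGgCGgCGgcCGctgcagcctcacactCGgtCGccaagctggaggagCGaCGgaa
Slc4a4 downstream: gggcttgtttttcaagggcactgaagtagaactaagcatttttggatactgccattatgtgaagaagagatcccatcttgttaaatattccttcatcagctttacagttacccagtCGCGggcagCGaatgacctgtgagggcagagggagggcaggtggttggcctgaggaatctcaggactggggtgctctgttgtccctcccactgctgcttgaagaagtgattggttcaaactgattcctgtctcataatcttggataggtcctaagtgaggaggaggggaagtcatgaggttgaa

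The upstream Cldn10 window held 4 CpG dinucleotides and a GC content of 36.0%, and the downstream window held 27 and 72.0%. Slc4a4 showed the opposite order, with 50 CpG dinucleotides and 80.0% GC upstream against 3 and 48.3% downstream. The median window of the 20150 protein-coding promoters used from the same table, with chromosome 18 left out, held 14 CpG dinucleotides and 57% GC. Each gene thus had 1 start site rich in CpG dinucleotides and 1 poor in them, in opposite positions.

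Cldn10 (chromosome 14, 118787908 to 118875489, plus strand) was transcribed from both of its start sites, which lie 67079 bases apart. By the alignment-based table the upstream start gave 40.2% of its TPM in replicate 1 and 42.6% in replicate 2. By the alignment-free table the same start gave 65.3% and 65.2%. The libraries were close within a table while the tables placed the larger share on opposite starts, so which start led depended on the quantifier. Both tables gave each start at least 34.7% of the gene's TPM in each library.

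Slc4a4 (chromosome 5, 88886818 to 89239653, plus strand) was transcribed mostly from its upstream start. The upstream start, which gives the forms of the transporter known from pancreas and brain, held 76.6% and 85.3% of its TPM by the alignment-based table and 53.2% and 58.2% by the alignment-free table. The downstream start, 140706 bases away, gives the form known from kidney and held 5.36% and 3.08% by the first table and 4.86% and 2.93% by the second. The low share of the downstream start was found in both tables and both libraries. The rest belonged to Slc4a4-206, an annotated transcript of 371 bases that starts between these sites, which took 14.8% ± 4.55 of the TPM by the first table and 40.4% ± 2.12 by the second (SD, n = 2).

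**Figure D2:**
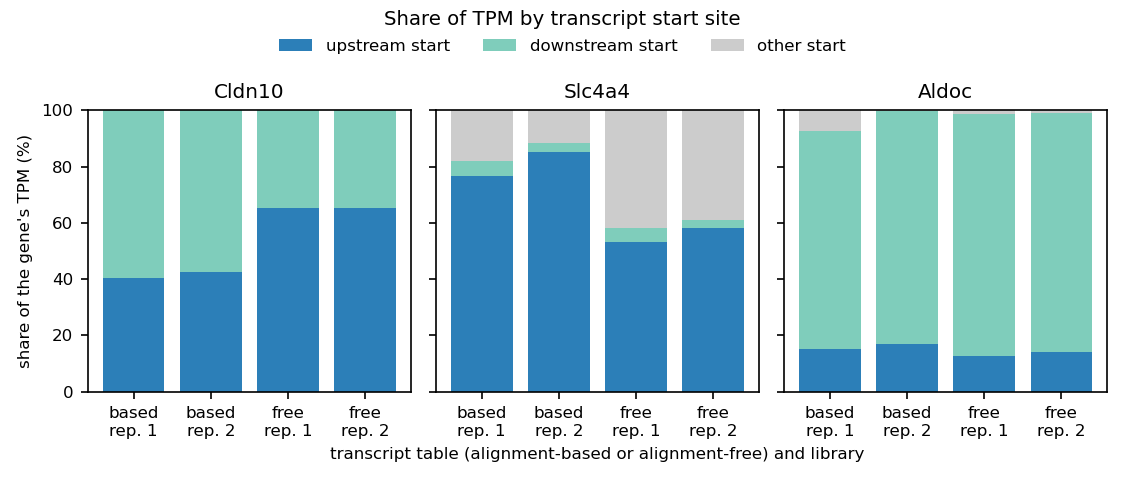
Share of the TPM of Cldn10, Slc4a4 and Aldoc (percent, stacked bars that start at 0) from transcripts that begin within 500 bases of each start site, for each transcript table and library. For Cldn10 the upstream share moves from 40.2% and 42.6% to 65.3% and 65.2% between tables, and for Aldoc the downstream start leads throughout.

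Amino acid handling genes had a median of 16.3 ± 1.07 TPM over 7 members, the lowest of the role groups, although they included the highest gene. Glul (chromosome 1, 153899944 to 153909723, plus strand) was read at 756 TPM (replicate 1) and 707 TPM (replicate 2), and ranked 26 among the 22015 protein-coding nuclear genes. Slc1a2, the main glutamate transporter of astrocytes and outside the list of 34, was read at 790 and 808 TPM. The enzyme thus stood at 0.917 ± 0.0577 times the level of the transporter that supplies its substrate. The other 6 genes of this role were each under 20 TPM in both libraries.

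Prodh, which starts the breakdown of proline, was read at 18.1 and 17.9 TPM. Cbs, which makes cystathionine from homocysteine, was read at 17.1 and 17.7 TPM. Gldc, a subunit of the glycine cleavage system, was read at 16.1 and 15.2 TPM. All 3 enzymes lay between 15.2 and 18.1 TPM in both libraries. Slc7a10, which carries small neutral amino acids such as glycine and serine, was read at 18.2 and 15.6 TPM. Slc7a11, which exports glutamate in exchange for cystine, was read at 15.3 and 11.3 TPM, and Slc7a10 stood at 1.29 ± 0.132 times its level. Etnppl, an enzyme that breaks down phosphoethanolamine, was read at 5.11 and 3.18 TPM.

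Metabolic and hormone genes had a median of 19.2 ± 0.608 TPM over 6 members. Aldoc (chromosome 11, 78322968 to 78327781, plus strand), the brain isozyme of the glycolytic enzyme aldolase, was read at 419 and 380 TPM. It stood at 0.376 ± 0.0733 times the level of its widely expressed paralog Aldoa, which was read at 980.4 and 1172 TPM. Its upstream start site, 1125 bases from the downstream one, gave 15.0% and 16.9% of its TPM by the alignment-based table and 12.6% and 14.2% by the alignment-free table, so here the tables gave the same order. Acsbg1, which activates long-chain fatty acids, was read at 48.3 and 48.1 TPM.

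Aldh1l1, a folate enzyme widely used to label astrocytes, was read at 20.96 and 20.73 TPM. Slc39a12, a zinc importer, was read at 18.4 and 15.8 TPM. Slco1c1, which carries thyroxine into the brain, was read at 18.2 and 16.7 TPM. Dio2, the deiodinase that turns thyroxine into the active hormone, was read at 15.6 and 16.9 TPM. The order of transporter and deiodinase changed between libraries, with a ratio of Dio2 to Slco1c1 of 0.934 ± 0.107. Slco1c1 is also known from brain endothelium, so its level need not come from astrocytes alone.

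Secreted and surface genes had a median of 23.2 ± 0.414 TPM over 8 members. Sparcl1 (chromosome 5, 104079111 to 104113733, minus strand) was read at 688 and 680 TPM and ranked 35 among protein-coding nuclear genes. Its level was 0.936 ± 0.0364 times that of Glul. Htra1, a secreted serine protease, was read at 85.5 and 82.2 TPM. Mfge8, a secreted bridge between phagocytes and the cells they engulf, was read at 69.4 and 67.7 TPM.

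F3, the tissue factor that starts blood coagulation, was read at 28.5 TPM in both libraries. Itih3, a heavy chain that binds hyaluronan in the extracellular matrix, was read at 18.5 and 15.4 TPM. Gpc5, a glypican of the cell surface, was read at 16.0 and 17.3 TPM. Agt (chromosome 8, 124556534 to 124569706, minus strand) was read at 17.2 and 9.94 TPM, the widest ratio between libraries in the list. Chrdl1, which in mice promotes the maturation of synapses, was read at 3.02 and 2.05 TPM, from 160 and 152 counts.

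Signalling and identity genes had the highest median of the roles, 84.1 ± 2.06 TPM over 5 members. Ndrg2, an abundant cytoplasmic protein of astrocytes, was read at 413 and 376 TPM. S100b, a calcium-binding protein, was read at 86.6 and 87.7 TPM. Ntsr2, a neurotensin receptor, was read at 82.7 and 85.6 TPM. Daam2, a formin of Wnt signalling, was read at 35.8 and 35.7 TPM, and Sox9, the transcription factor that specifies glia, at 17.4 and 16.4 TPM. The mean levels of S100b, Ntsr2 and Htra1 were neighbours in rank, and those of Ntsr2 and Htra1 did not differ beyond their spread.

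Set beside these, 26 other astrocyte genes lay at a median of 77.1 ± 3.29 TPM (SD, n = 2), above the 24.7 TPM of the list of 34. The highest of them were Cst3, a secreted protease inhibitor, at 1903 and 1849 TPM, and Apoe, the lipid carrier, at 1791 and 1667 TPM. A list of 20 reactive astrocyte genes had a median of 6.46 ± 0.262 TPM, and 16 of the 20 reached a TPM of 1 in both libraries. Its highest gene was Gfap, the intermediate filament of reactive astrocytes, at 821 and 853 TPM. Gfap thus stood at 11.9 ± 0.630 times the level of Aqp4. Without samples that lack transgenes, neither level can be called raised or lowered by them.

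The libraries were then compared gene by gene, on expected counts scaled by TMM (the trimmed mean of M-values) and given as the log2 ratio of replicate 2 to replicate 1. An exact conditional binomial test, two-sided and adjusted by the Benjamini-Hochberg method over the 16971 genes with a mean of at least 20 counts, asked whether a ratio exceeded counting error. It compares these 2 libraries, not conditions. None of the 34 genes was more than 2-fold apart, where 2.00% of all genes were. By the exact test 12 of the 34 differed at an adjusted p under 0.05, or 35.3%, against 18.0% of all genes. The test detects smaller ratios at higher counts. With a minimum mean of 100 counts, which all 34 reached, 12 of the 34 and 21.6% of all genes differed. All 12 were lower in replicate 2, against 8.89% of all genes, and 0 were higher, against 9.07% of all genes. At any size 29 of the 34 were lower in replicate 2, against 50.2% of all genes.

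The ratios were small for most members. Their median was -0.10 on the log2 scale, where the median of all genes was 0.00 to 2 decimals. The direction depended on the scaling. With the ERCC spike-ins as the reference the median of all genes moved to 0.27 and that of the members to 0.17. Then 4 of the 34 members were lower in replicate 2, against 14.8% of all genes. A scaling factor moves all genes alike, so the 29 of 34 members that lay below the median of all genes are the same number under each scaling by construction. With the alignment-free counts 29 of 34 lay below that median, and 26 of 34 did where no filter on counts was used.

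Agt was 1.77-fold higher in replicate 1, from 558 against 345 counts (log2 ratio -0.82, 95% counting interval -1.02 to -0.63, exact binomial test, adjusted p = 2.2e-15). Etnppl was 1.52-fold higher in replicate 1, from 226 against 162 counts (log2 ratio -0.61, 95% interval -0.91 to -0.31, exact binomial test, adjusted p = 0.00062). Both kept their direction and their call under spike-in scaling, at -0.55 and -0.34. The 5th and 95th percentiles of all genes were -0.59 and 0.34, and both ratios lay below the lower one.

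Itih3 had a log2 ratio of -0.39 (exact binomial test, adjusted p = 5.4e-06) and Slc7a11 one of -0.38 (exact binomial test, adjusted p = 1.3e-13). Slc7a11 kept its call with spike-in scaling, at -0.11, and Itih3 did not, at -0.13 with an adjusted p of 0.15 by the exact test. The amino acid handling genes were lower in replicate 2 in 7 of 7 cases, against 50.2% of all genes, with a median log2 ratio of -0.18. Of the 7, 4 passed the test (Glul, Cbs, Slc7a11 and Etnppl), against 18.0% of all genes. With spike-in scaling only Slc7a11 and Etnppl of the 7 were lower in replicate 2, where 14.8% of all genes were. This pattern was not particular to amino acid handling. By TMM scaling the secreted and surface genes were lower in 7 of 8 cases, with a median of -0.11, and 4 of 8 passed. The metabolic and hormone genes were lower in 5 of 6, with a median of -0.10, and 2 of 6 passed. The same shares of all genes, 50.2% and 18.0%, apply to both.

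The remaining called genes differed by little, and their counts made small ratios detectable. Glul had a log2 ratio of -0.11, Sparcl1 of -0.05, Aldoc of -0.10 and Ndrg2 of -0.18, each from 12734 to 34455 counts per library. Htra1 stood at -0.13, Gjb6 at -0.20, Slc39a12 at -0.23 and Cbs at -0.24. These 8 genes turned to the other sign with spike-in scaling. For Cbs the call was lost with the size factors of DESeq2 (adjusted p = 0.056 by the same exact test) and with the alignment-free counts (adjusted p = 0.12). For Cbs the TPM was higher in replicate 2, 17.7 against 17.1, while its scaled count was lower; TPM also divides by a transcript length that can differ between libraries.

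**Figure D3:**
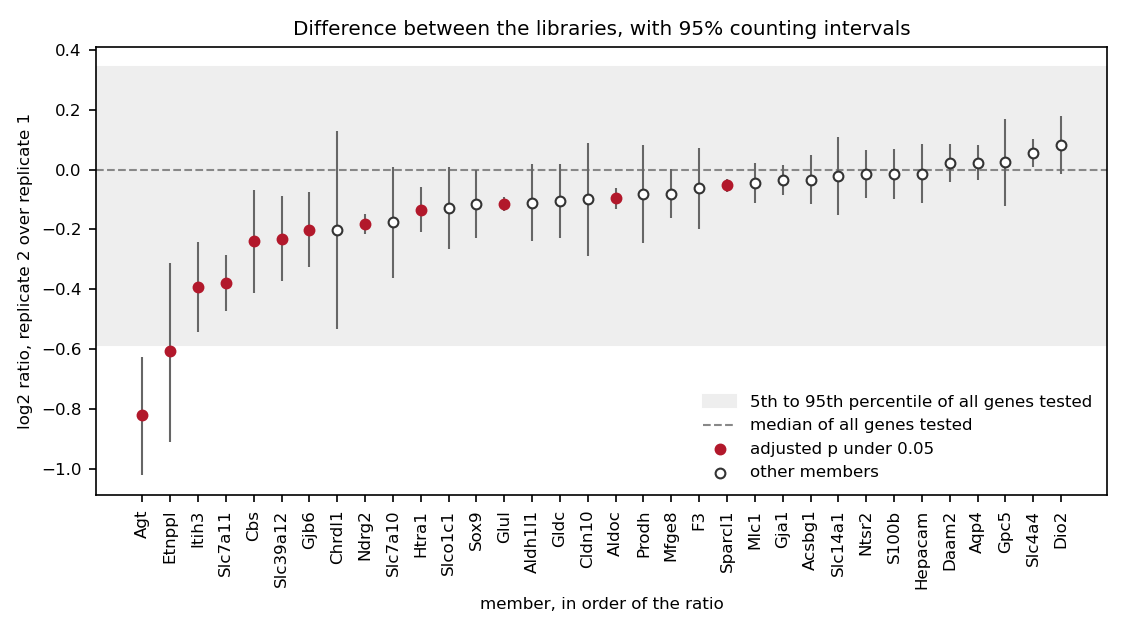
Log2 ratio of replicate 2 to replicate 1 for each of the 34 genes after TMM scaling, with 95% counting intervals, filled points for an adjusted p under 0.05 by the exact binomial test, a dashed line at the median of all genes tested and a grey band for their 5th to 95th percentile. Of the 34 points 29 lie below 0, against 50.2% of all genes, and Agt, at -0.82, lies farthest below the band. With spike-in scaling 4 would lie below 0, against 14.8% of all genes.

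The membrane and junction genes had a median log2 ratio of -0.03, and 1 of 8 (Gjb6) passed the test, against 18.0% of all genes. The signalling and identity genes had a median of -0.02, and 1 of 5 (Ndrg2) passed. With so few genes, neither count sets its role apart from all genes. Slc4a4 at 0.06, Aqp4 at 0.02, Daam2 at 0.02, Gpc5 at 0.02 and Dio2 at 0.08 were the 5 genes with a positive ratio, and none of these passed the test. For Slc4a4 the adjusted p of the exact test was 0.099, and 0.018 with the size factors of DESeq2. The counting intervals of the genes that did not pass spanned 0 except for Slc4a4 and Sox9. The median half-width over the list was 0.11 on the log2 scale.

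Other cell types differed between the libraries at the same time. The 12 choroid plexus genes had a median log2 ratio of -2.52 and were lower in replicate 2 in 12 of 12 cases, with none at 0 in either library. The 8 striatal genes had a median of -1.77, lower in 8 of 8, and the 8 meningeal fibroblast genes one of -0.61, lower in 8 of 8, with sums of 146 and 86.2 TPM. The 10 endothelial genes had a median of -0.22, lower in 10 of 10, and sums of 129 and 119 TPM. Genes of hippocampal neurons went the other way, with a median of 0.28, higher in 10 of 10, and sums of 945 and 1221 TPM. The other 26 astrocyte genes had a median of -0.06 and were lower in 21 of 26, against 50.2% of all genes. All these ratios are by TMM scaling. Spike-in scaling moved the median of all genes to 0.27, a larger step than the endothelial and other astrocyte medians. The directions of those 2 lists therefore depend on the scaling. The part of these tissues in the ratios of the 34 genes was not tested.

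**Figure D4:**
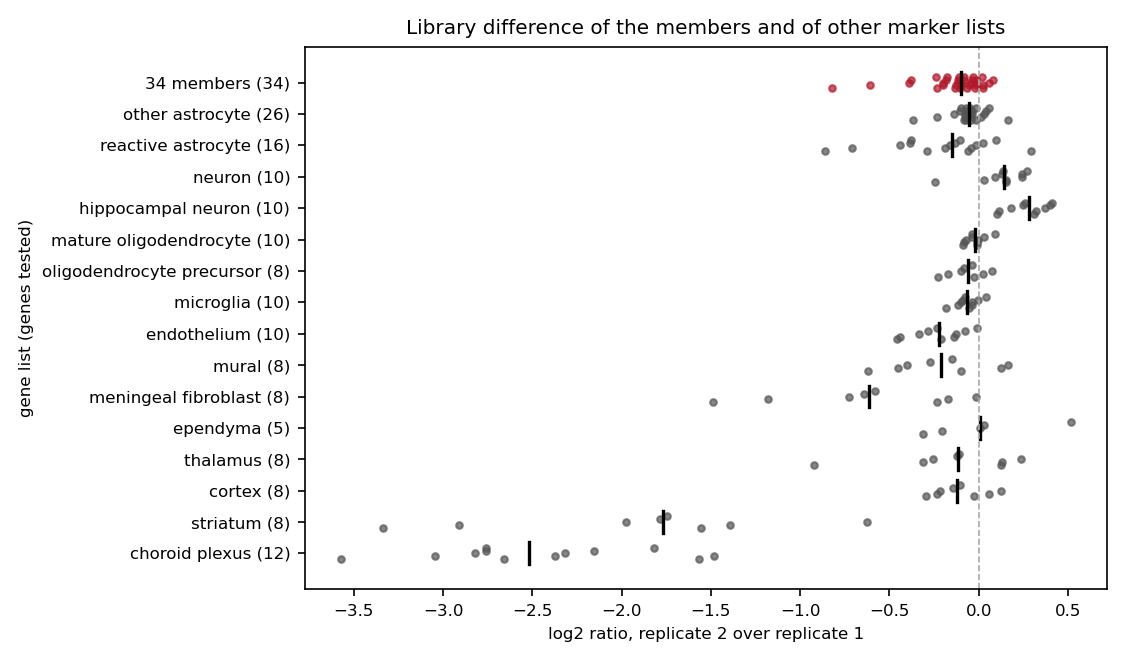
Log2 ratio of replicate 2 to replicate 1 (TMM scaling) for the 34 genes in red and for the genes of 15 other marker lists in grey, 1 point a gene, with a black bar at each median. The 34 genes have a median of -0.10, between the hippocampal neuron genes at 0.28 and the choroid plexus genes at -2.52.

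Transcripts were counted in an alignment-based and in an alignment-free table. S100b, Sox9, Agt and Dio2 have a single annotated transcript, and the other 30 genes have several. Over all 34 the leading transcript held a median of 74.5% of its gene's TPM by the first table and 68.5% by the second. For 26 of the 30 genes both tables named the same leader. Among those with a TPM of at least 10 this was 24 of 28, or 85.7%, against 81.9% of all protein-coding genes of that kind, a share close to the background.

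A single transcript supplied nearly all of Gja1, where Gja1-201 held 98.8% ± 0.188 (SD, n = 2), and of Sparcl1, where Sparcl1-201 held 97.6% ± 0.177, both by the alignment-based table. Ndrg2 was divided, with Ndrg2-202 at 47.1% and 53.7% and Ndrg2-201 at 39.9% and 32.4%. Cbs and Prodh were divided further, with leading transcripts at 29.7% and 27.7% of Cbs and at 40.8% and 28.1% of Prodh.

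For 2 genes the leading transcript was of a class that does not give the full protein. These were 7.14% of the 28 genes, where 8.12% of all protein-coding genes of that kind were alike. Slco1c1-202, annotated as a target of nonsense-mediated decay, held 57.5% and 67.5% of Slco1c1 by the first table and 56.5% and 71.1% by the second. Daam2-203, a transcript of 8956 bases with a retained intron, held 52.5% and 57.0% of Daam2 and then 51.1% and 55.2%. In both tables and both libraries each of these 2 leaders held most of its gene's TPM, so the protein-coding transcripts held the smaller part. Other members also held TPM in such classes, as Prodh with 30.4% by the first table and 35.9% by the second.

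The leader differed between tables for Htra1, Cldn10, Slc4a4 and Cbs. Htra1-201, the protein-coding form, held 74.7% and 68.2% by the first table and 30.7% and 20.3% by the second. In the second table Htra1-205, a processed transcript with no coding sequence, held 49.7% and 55.6% instead. The choice between these forms therefore rested on the quantifier, while the gene level, 85.5 and 82.2 TPM against 87.7 and 90.3 TPM, differed less.

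**Figure D5:**
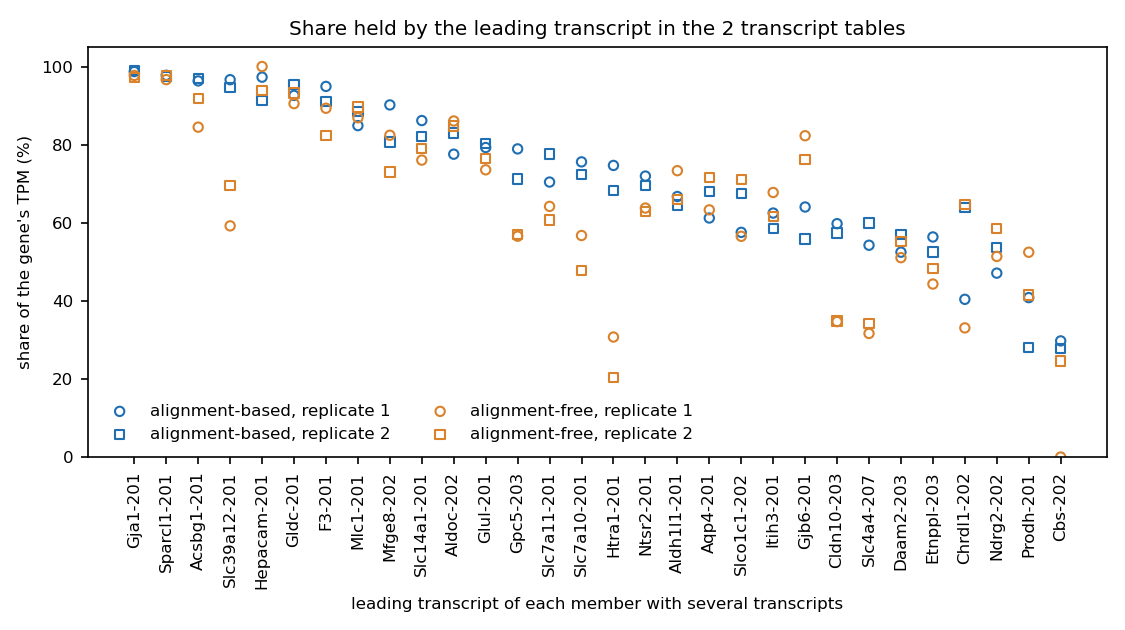
Share of the gene's TPM (percent) held by the leading transcript of each of the 30 genes with several transcripts, in order of the alignment-based share, with blue for the alignment-based and orange for the alignment-free table, circles for replicate 1 and squares for replicate 2. The marks of the 2 tables lie apart for Htra1, Cldn10, Slc4a4, Slc39a12, Gjb6, Slc7a10 and Gpc5 among others, as for Htra1-201 with 74.7% and 68.2% against 30.7% and 20.3%.

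Counts of the 2 tables were set against each other for genes with at least 500 counts in both libraries. Over 7447 such genes the alignment-free count was a median of 1.14 times the alignment-based count, and over the 29 members among them 1.12 in replicate 1 and 1.13 in replicate 2. Prodh at 1.29 ± 0.00106, Cbs at 1.27 ± 0.0393 and Hepacam at 1.26 ± 0.0161 were above the 95th percentile of all genes in both libraries. S100b at 1.04 ± 0.00695 was below the 5th percentile in both. The deposited coefficient of quartile variation, the quantifier's own measure of uncertainty within a library, was lowest for Sparcl1, at 0.00402 and 0.00389, and highest in replicate 1 for Chrdl1, at 0.0994.

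Some members overlap a gene on the opposite strand. Slc7a10 overlaps Lrp3, whose counts were 416% of its own, and S100b overlaps Dip2a, whose counts were 106%. Prodh overlaps Dgcr6 at 87.7%, and Htra1 overlaps Fgfr2 at 50.7%. The labels name a directional library kit, but no source used here says whether strand was used in counting, so the levels of these 4 genes are uncertain where they overlap.

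Promoter windows of 29 of the 34 genes were used from the RefSeq table, 36 windows in all. Windows on chromosome 18, where Aqp4 and Slc14a1 lie, were left out for the members and for all genes. Their median GC content was 56.8%, beside 57% over all 20150 windows, and their median number of CpG dinucleotides was 8, beside 14. The letters AACAAT on either strand, the core of SOX binding motifs, were in 0 of the 36 windows and in 8.93% of all windows. The letters TTGGCA on either strand, a half-site of nuclear factor I, were in 6 of 36, or 16.7%, and in 13.1% of all. The letters TATAAA on either strand were in 8 of 36, or 22.2%, and in 12.1% of all. Some genes have more than 1 window and windows of a gene can overlap, so these shares are descriptions, and a match is not a site in use.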

How the data were processed

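Total RNA-seq of 1 group of 2 libraries was analysed. The authors deposited, per the file headers, a gene and a transcript table with expected counts, TPM, FPKM, the percent of each transcript in its gene and a coefficient of quartile variation (a score), plus an alignment-free transcript table with estimated counts and TPM. Per the notes deposited with each library these are on mm10, a C57BL/6J reference, with GENCODE M21; no source used here names the aligner or the quantifier. Whether differences of the CAST strain from that reference change the levels was not tested. FPKM and the percent column were not used.

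Expected counts were rounded to whole numbers (31 of the 34 genes held whole counts within 0.005), scaled by TMM (edgeR 4.0.16, R 4.3.3), and compared with a prior count of 0.5 and an exact conditional binomial test (scipy 1.17.1), tested on simulated data first. The simulated data held counting error only, and differences larger than that of any member. They therefore did not check calls on ratios as small as those of the members. With 1 group, no condition was tested. Counting intervals cover counting error only. Alternatives were DESeq2 1.42.0 size factors, library size, ERCC counts, other count filters and the alignment-free table. Coordinates come from GENCODE M21, promoter windows from RefSeq. A start site took transcripts beginning within 500 bases.

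All 34 genes are named, by role; from other lists the 3 highest genes could be named where a result turned on them. Aldoa was chosen after its values were seen. The members and lists were chosen with earlier results of these data known.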

Additional observations from a re-analysis of the deposited data

How the results depend on the processing

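The median level of the 34 genes, 24.7 TPM, was 24.2 TPM by the alignment-free table, 54.6 TPM when TPM was rescaled over protein-coding nuclear genes, and 37.3 or 36.5 TPM as a back-transformed mean of log2 values with a pseudocount of 1 or 0.1; leaving out a replicate gave 24.6 to 24.7 TPM. The median leading transcript share, 74.5%, was 68.5% by the alignment-free table and 74.9 to 76.6% with a replicate left out. With ERCC scaling 26 of the 34 genes were apart beyond counting error, against 58.8% of all genes. Of these 26, 3 were lower and 23 higher in replicate 2, against 12 lower with TMM. The median log2 ratio of the 34 was 0.17, and 4 were lower in replicate 2, against 14.8% of all genes. This count of 4 was set against other settings after the data were seen. The ratios that turned sign with ERCC scaling were Glul 0.15, Sparcl1 0.21, Aldoc 0.17, Ndrg2 0.085, Gja1 0.23, S100b 0.25, Ntsr2 0.25, Htra1 0.13, Mlc1 0.22, Mfge8 0.19, Acsbg1 0.23, Gjb6 0.065, Hepacam 0.25, F3 0.20, Aldh1l1 0.16, Prodh 0.19, Cbs 0.027, Slc39a12 0.036, Sox9 0.15, Gldc 0.16 and Slc14a1 0.24, and, past the test under neither scaling, Slco1c1 0.14, Slc7a10 0.090, Cldn10 0.17 and Chrdl1 0.064. The cause was not tested. Single levels moved by more than the spread between libraries for 24 of 34 genes by the alignment-free table and for 16 by the deposited posterior mean TPM, and leading shares did for 23 by the alignment-free table. These counts were made for the list only, and no share over all genes was computed. The spread of 2 libraries can be very small, as for Daam2 at 0.0354 TPM, so the counts do not set the list apart. In every setting tried 0 of the 34 genes were more than 2-fold apart, where 0.633% to 22.7% of all genes were. Outside ERCC scaling 11 to 12 of the 34 were apart beyond counting error, against 10.3% to 21.6% of all genes. The lowest 2-fold share came with a minimum mean of 100 counts and the highest without a count filter. At a share as low as the first, a count of 0 does not set the list apart. No paired analysis was possible because there is 1 group. With 2 libraries that share a donor identifier, no spread between animals can be given, and ratios under 0.11 (log2) are within counting error for the median member.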
